A study of Mus musculus with 4 samples.

Results

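The extracellular matrix genes described here are 30 genes taken by symbol from the 32285 genes of the count matrices: 13 collagen chains, 8 adhesive or matricellular proteins, 3 crosslinking enzymes, 3 proteins of elastic fibres and microfibrils, and 3 small leucine-rich proteoglycans. All 30 symbols were found. The mice were females of strain FVB/NJ that carry MMTV-PyMT, a polyoma middle T oncogene driven by the promoter of mouse mammary tumour virus, so the controls carry the tumour transgene too. At 8 weeks of age 2 of them received a placebo pellet and 2 a pellet holding 5 mg tamoxifen, made to release it for 60 days, and the lungs were taken 5 weeks later, at 13 weeks. Perfused whole lung was digested with dispase, collagenase, elastase and DNase, and each mouse gave 1 library of 10x 5' single-cell RNA. The question asked of the matrix genes was in which lung cells they are read out and whether their levels differ between tamoxifen and placebo within a cell class.

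The matrix is the protein scaffold outside cells. Fibrillar collagens give the lung tensile strength, elastin with its fibrillin microfibrils gives recoil, and collagen IV forms the network of basement membranes under epithelium and endothelium. Proteoglycans and matricellular proteins such as thrombospondin and periostin bind these fibres and the cells around them, and lysyl oxidases crosslink collagen and elastin. Fibroblasts are known as the main source of this scaffold in lung, with smooth muscle, pericytes, endothelium and mesothelium adding their own parts.

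The libraries held 32646505 to 37285982 UMIs (counted molecules), and 6676 to 7480 cells per mouse were kept. Pairs of libraries shared 77 to 128 cell barcodes. Cells were clustered without the matrix genes, and clusters were named from marker genes alone, so every name below stands for a marker-based, "-like" class. Per mouse, in the order placebo 1, placebo 2, tamoxifen 1 and tamoxifen 2, there were 408, 201, 218 and 244 alveolar fibroblasts, 129, 48, 79 and 97 adventitial fibroblasts, 83, 38, 111 and 193 mesothelial cells, and 177, 55, 98 and 74 mural cells (smooth muscle and pericytes). General capillary endothelial cells numbered 151, 124, 109 and 63, and aerocytes, the capillary cells of gas exchange, 73, 64, 40 and 38. The other classes were large-vessel endothelium (51 to 82 cells), alveolar macrophages (271 to 313) and interstitial macrophages (84 to 168). In each of the 9 classes none of the class's own markers was at 0, but large-vessel cells were shallow, with a median of 924.5 to 1112 UMIs, and carried summed neutrophil markers of 376 to 15329 CPM. Aerocytes carried summed neutrophil markers of 2379, 23768, 3048 and 16437 CPM, beside their own summed markers of 12993 to 14017 CPM. Mural cells carried 290 to 15787 CPM of neutrophil markers. The part of neutrophil RNA in the values of these classes was not tested. CPM are the UMIs of a gene or list per 1000000 UMIs of the class in that mouse.

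Fibroblasts held most matrix transcripts. The 30 genes together took 4.32, 5.06, 4.25 and 4.70% of the UMIs of adventitial fibroblasts, the fibroblasts of the sheaths around vessels and airways. They took 3.18, 3.74, 2.90 and 3.26% in alveolar fibroblasts, which lie in the gas-exchange walls. Mesothelial and mural cells followed at 1.24 to 1.86%, general capillary cells at 0.556 to 0.843%, aerocytes and large-vessel endothelium at 0.197 to 0.495%, and macrophages lay between 0.0187 and 0.0916%. T and B cells, which are not known to make matrix, gave a background of 0.00206 to 0.00627%. These are shares of a class's own UMIs and do not count how many cells of each class were recovered.

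**Figure D1:**
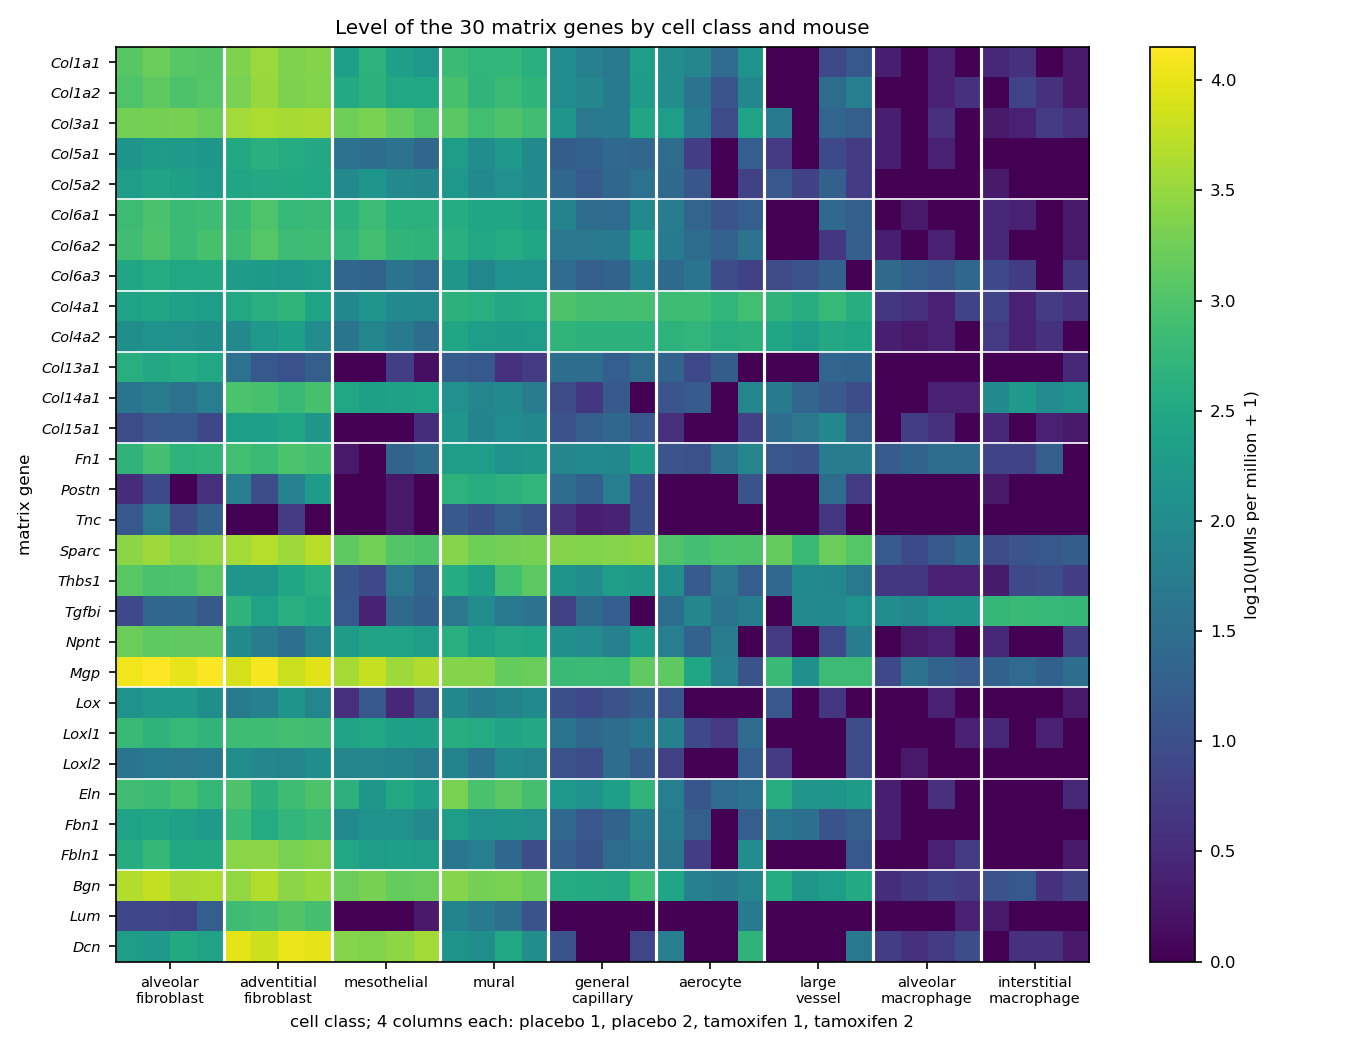
Level of each of the 30 matrix genes (rows) in 9 cell classes and 4 mice (columns), as log10 of CPM plus 1. White lines part the classes and the gene groups. The brightest squares lie in the 2 fibroblast classes, Col4a1 and Col4a2 are brightest in capillary endothelium, and Tgfbi in interstitial macrophages.

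Genes were ranked among the 9 classes only, by their mean over the 4 mice. Adventitial fibroblasts were highest for 16 of the 30 genes and alveolar fibroblasts for 9. Mural cells were highest for 2, general capillary cells for 2 and interstitial macrophages for 1. For 18 of the 30 genes the lowest mouse of the highest class lay above the highest mouse of the next class. These were 12, 3, 1, 1 and 1 genes in the same order. Levels by class are given as CPM and are described without a test because the classes come from clusters of the same cells.

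Of the fibrillar collagens, Col1a1 and Col1a2 encode the 2 chains of type I collagen, the main load-bearing fibre. Col1a1 stood at 2214, 3324, 2197 and 2375 CPM in adventitial and at 1164, 1579, 1176 and 1102 CPM in alveolar fibroblasts, so each adventitial value lay above each alveolar one. Mural cells averaged 540 CPM and mesothelial cells 271 CPM. Col3a1, the type III collagen of pliable tissue, averaged 4093 CPM in adventitial, 1877 in alveolar, 1571 in mesothelial and 938 in mural cells. Col5a1 and Col5a2, chains of the type V collagen that sets fibril width, had the same first and second class, at 358 and 311 CPM in adventitial fibroblasts. For each of these 5 genes the adventitial mice did not overlap the alveolar mice, with mean ratios from 1.39 for Col5a2 to 2.18 for Col3a1 and Col5a1.

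Collagen VI, the beaded filament around cells, differed from the fibrillar collagens in the balance between the fibroblast classes. Col6a1 and Col6a2 had overlapping values in both fibroblast classes, with ratios of the means of 1.06 and 1.01, and mesothelial cells were close behind at 514 and 590 CPM. Col6a3 was higher in alveolar fibroblasts, at 281, 359, 302 and 328 CPM, than in adventitial ones, at 196, 185, 165 and 207 CPM. Mesothelial cells held only 20.4 to 38.7 CPM of Col6a3, against 448 to 704 CPM of Col6a1. Across 7 stromal and endothelial classes the mean log levels of Col6a1 and Col6a2 had r = 0.99, a description over 7 points from the same 4 libraries.

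**Figure D2:**
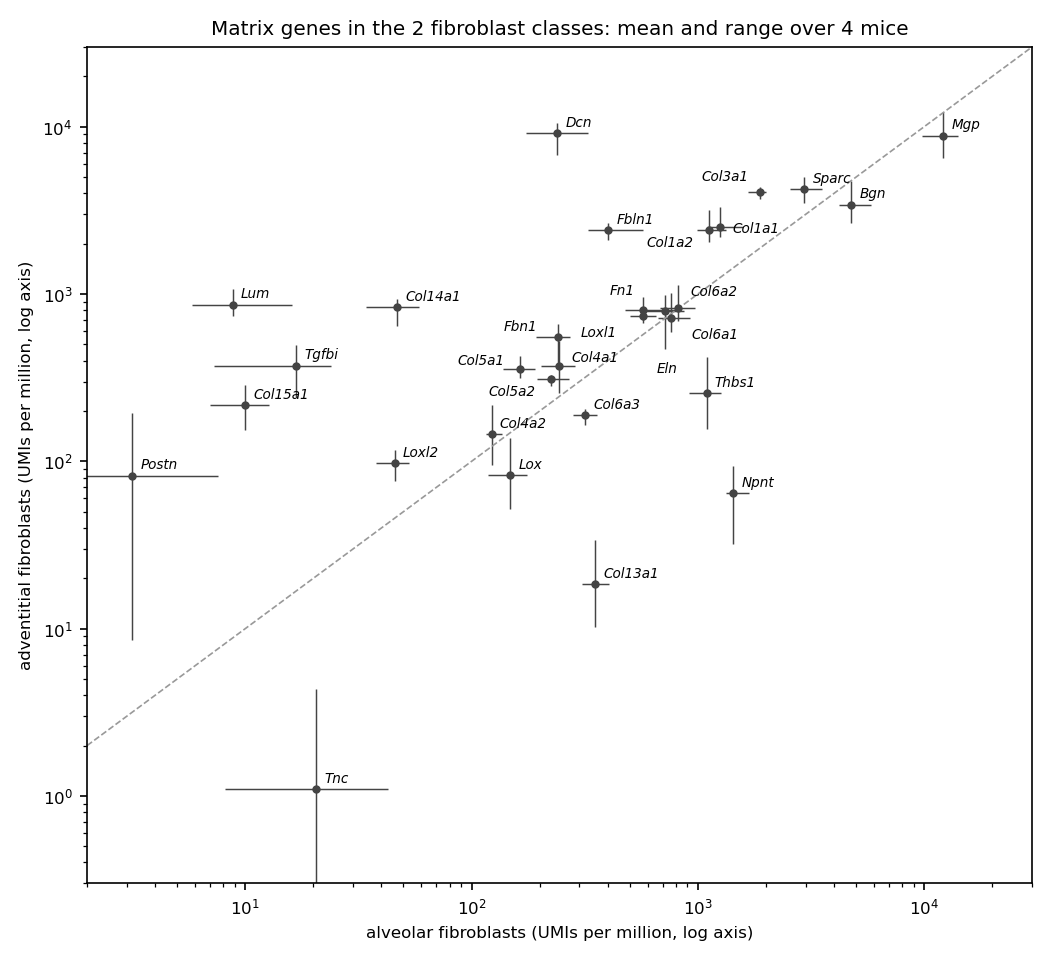
Mean level of the 30 matrix genes in alveolar (x axis) and adventitial (y axis) fibroblasts, in CPM on log axes; bars span the lowest to the highest of 4 mice and run off the axis where a mouse is at 0. Genes above the dashed line of equal level, such as Lum, Dcn, Tgfbi and Col15a1, were higher in adventitial fibroblasts, and Npnt, Col13a1 and Thbs1 lie below it.

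The chains of collagen IV had another source. Col4a1 was at 961, 858, 822 and 841 CPM in general capillary cells, at 547 to 786 CPM in aerocytes and at 378 to 603 CPM in large-vessel endothelium. Mural cells, which share a basement membrane with endothelium, held 323 to 461 CPM. Within the mural class the pericyte cluster had 887 to 993 CPM and the smooth muscle cluster 262 to 396 CPM. Alveolar type 1 cells, the thin epithelium that shares a basement membrane with capillaries, reached 544 to 712 CPM in 12 to 18 cells per mouse.

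Col4a2 followed Col4a1 from class to class, with r = 0.98 over the 7 stromal and endothelial classes, while the next closest member, Postn, had r = 0.40. The ratio of Col4a1 to Col4a2 UMIs averaged 1.45 in aerocytes, 1.81 in general capillary cells, 1.74 in mural cells, 1.99 in alveolar and 2.63 in adventitial fibroblasts. In alveolar type 1 cells, outside these classes, Col4a2 averaged 756 CPM and Col4a1 657 CPM. There Col4a1 was the higher only in tamoxifen 1, at 712 against 688 CPM. The genes (ENSMUSG00000031502 and ENSMUSG00000031503) lie head to head on chromosome 8 of GRCm38, Col4a1 at chr8:11198423-11312826 on the minus strand and Col4a2 at chr8:11312805-11449287 on the plus strand. Their first exons overlap by 22 bases in both GENCODE vM21 and RefSeq (GRCm38.p6, chr8:11312805-11312826). Whether the counting used the strand is not given in the sources used here, so reads from the overlap could not be assigned with certainty. Both promoter windows, the 250 bases before each start, hold CCAAT on either strand, as do 33.8% of the 32851 RefSeq windows of that length.

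**Figure D3:**
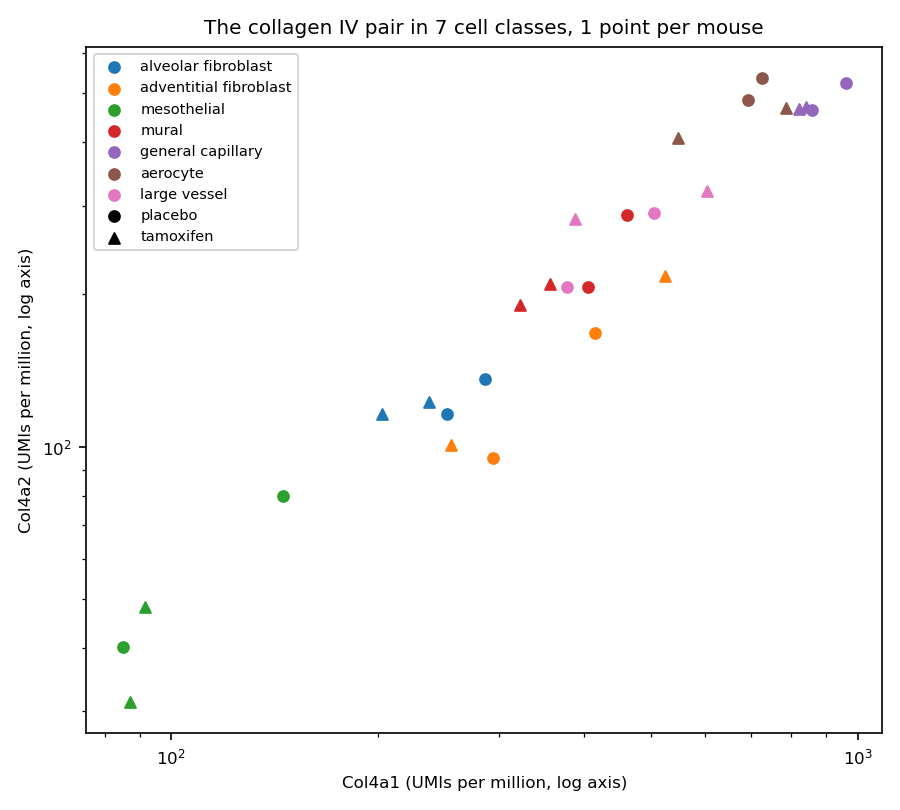
Col4a1 (x axis) against Col4a2 (y axis) in CPM, both axes log, for 7 cell classes (colours) with 1 point per mouse (circles placebo, triangles tamoxifen). The points lie along 1 diagonal from mesothelial cells at the lower left to general capillary cells and aerocytes at the upper right, with adventitial fibroblasts below it.

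Of the remaining collagens, Col13a1, a transmembrane collagen, was the most restricted to alveolar fibroblasts, at 407, 323, 366 and 308 CPM. Its next class averaged 26.6 CPM, 13.2-fold lower, and 87.5% of all its UMIs in kept cells came from alveolar fibroblasts. Col14a1, a collagen that binds the surface of fibrils, averaged 835 CPM in adventitial fibroblasts and 257 CPM in mesothelial cells. It was also read in interstitial macrophages at 95.5, 173, 98.1 and 133 CPM, where 38.6% of 505 cells had a UMI. The share in T cells was 0.0497% and in B cells 0 of 1293, with median depths of 2539 to 3936.5 UMIs against 6092 to 8032.5 in interstitial macrophages. Col15a1, of the zone next to basement membranes, averaged 216 CPM in adventitial fibroblasts and 102 CPM in mural cells and stayed at 12.8 CPM or less in alveolar fibroblasts.

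Promoter windows of 3 genes are printed because they belong to genes that peak in different classes and share 1 motif: Col3a1 (highest in adventitial fibroblasts; GRCm38.p6, chr1:45311288-45311537, plus strand), Col13a1 (alveolar fibroblasts; chr10:61979109-61979358, minus strand) and Postn (mural cells; chr3:54360857-54361106, plus strand). Each run is the 250 bases before the RefSeq start, 5′ to 3′ on the gene's strand, with TATAAA in capitals.
Col3a1: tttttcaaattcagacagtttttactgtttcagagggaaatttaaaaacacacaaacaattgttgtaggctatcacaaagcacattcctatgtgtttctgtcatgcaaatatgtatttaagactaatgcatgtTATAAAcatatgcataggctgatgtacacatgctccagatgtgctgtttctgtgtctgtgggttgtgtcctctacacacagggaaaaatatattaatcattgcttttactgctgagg
Col13a1: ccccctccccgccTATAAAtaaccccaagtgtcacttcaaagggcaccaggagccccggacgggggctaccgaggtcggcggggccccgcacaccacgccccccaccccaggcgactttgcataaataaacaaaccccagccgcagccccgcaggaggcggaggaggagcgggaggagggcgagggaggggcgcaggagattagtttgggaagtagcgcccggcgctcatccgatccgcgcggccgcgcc
Postn: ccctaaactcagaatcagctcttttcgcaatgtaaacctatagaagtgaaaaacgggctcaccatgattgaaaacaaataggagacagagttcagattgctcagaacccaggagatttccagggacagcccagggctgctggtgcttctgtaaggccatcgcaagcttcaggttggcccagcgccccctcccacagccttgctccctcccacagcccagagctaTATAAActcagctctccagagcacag
The RefSeq table held windows for 18 of the 30 members. TATAAA, searched on both strands, was in 4 of the 18 (these 3 and Tnc) and in 12.4% of all windows. It lies 26 bases before the start in Postn, 117 in Col3a1 and 237 in Col13a1. GGGCGG on either strand was in 10 of the 18 and in 32.7% of all windows. A match describes the letters of the window and is not evidence of a bound site.

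Among the adhesive and matricellular genes, Fn1 encodes fibronectin, which links cells to fibres. It averaged 807 CPM in adventitial and 574 CPM in alveolar fibroblasts, with overlapping mice. Outside the 9 classes it averaged 908 CPM in classical monocytes and 4526 CPM in unnamed cluster 53. Postn, periostin, was at 483, 382, 461 and 529 CPM in mural cells, and its pericyte cluster held 1431 to 1630 CPM against 252 to 368 CPM in the smooth muscle cluster. Adventitial fibroblasts, the next class, ranged from 8.60 to 195 CPM. Tnc, tenascin C, was the only member under 50 CPM in all 9 classes, with at most 42.8 CPM in alveolar fibroblasts.

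Sparc, a collagen-binding glycoprotein, was broad: at 654 CPM or more in every mouse of the 7 stromal and endothelial classes, and at 4415 to 6418 CPM in alveolar type 1 cells, where adventitial fibroblasts had 3494 to 4979 CPM. Npnt, nephronectin, an integrin ligand of basement membranes, was at 1676, 1329, 1387 and 1356 CPM in alveolar fibroblasts against a mean of 307 CPM in mural cells. Mgp, matrix Gla protein, an inhibitor of calcification, averaged 12169 CPM in alveolar and 8858 CPM in adventitial fibroblasts, and the mice overlapped. Tgfbi, an adhesion protein induced by TGF-beta, was highest in interstitial macrophages at 584, 657, 592 and 581 CPM, above the 243 to 494 CPM of adventitial fibroblasts, and reached 699 to 981 CPM in classical monocytes.

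The crosslinking enzymes differed among themselves. Lox averaged 148 CPM in alveolar and 83.0 CPM in adventitial fibroblasts with overlapping mice. Loxl1, which acts on elastin, was at 703 to 781 CPM in adventitial and 503 to 651 CPM in alveolar fibroblasts. Loxl2 averaged 97.3 CPM in adventitial fibroblasts, 71.2 in mural and 70.1 in mesothelial cells.

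Eln, the elastin gene, was highest in mural cells at 2046, 909, 1233 and 851 CPM, and overlapped with adventitial fibroblasts at 469 to 993 CPM. Fbn1, fibrillin 1 of microfibrils, averaged 555 CPM in adventitial fibroblasts, and Fbln1, fibulin 1, averaged 2415 CPM there against 401 CPM in alveolar fibroblasts. The proteoglycan Lum, lumican, was 20.7-fold higher in adventitial fibroblasts than in its next class, at 737, 808, 1069 and 851 CPM against 10.8 to 72.8 CPM in mural cells. Dcn, decorin, averaged 9128 CPM in adventitial fibroblasts, 2844 CPM in mesothelial cells and 239 CPM in alveolar fibroblasts. Bgn, biglycan, was spread more evenly, at 4771 CPM in alveolar, 3431 in adventitial, 2004 in mural and 1687 in mesothelial cells.

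Likeness of pattern was read as r of mean log levels over the same 7 classes. The closest partner of Dcn was Col14a1 (r = 0.95), of Col1a2 it was Col5a1 (0.98), of Col3a1 it was Loxl1 (0.99), and of Lox it was Col6a3 (0.97). Dcn and Lum, both proteoglycans, had r = 0.65. With 7 points from shared libraries these values describe the order of classes only.

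Alveolar fibroblasts were made of 2 clusters that differed in matrix genes left out of the clustering. Cluster 15 averaged 470 CPM Col13a1 and 1914 CPM Npnt, and cluster 19 averaged 237 and 977 CPM. Thbs1, thrombospondin 1, and Dcn ran the other way, at 681 and 64.2 CPM in cluster 15 and at 1459 and 403 CPM in cluster 19. Cluster 19 made up 39.95 and 42.3% of the alveolar fibroblasts in the placebo mice and 57.3 and 56.6% in those with tamoxifen. Its part in the class-wide values below was not tested beyond the values given for each cluster.

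For the comparison of tamoxifen with placebo, each class's UMIs were added up within a mouse, and edgeR compared the sums over all genes of the class, with Benjamini-Hochberg adjustment and a threshold of 0.05. In these comparisons the CPM of a gene in a class are scaled by TMM, edgeR's correction for composition. Marker sums, single clusters, cells outside the 9 classes and levels without the highest cell are unscaled. A member is called non-overlapping when both tamoxifen mice lie above, or both below, both placebo mice. With edgeR no member passed in any of the 9 classes. At an unadjusted p under 0.05 edgeR gave 2 of 29 tested members in alveolar fibroblasts, where 2.16% of all genes were under it, and 3 of 29 in adventitial fibroblasts (4.89% of all genes). It gave 7 of 24 in mesothelial (4.28%), 4 of 28 in mural (2.78%) and 5 of 25 in general capillary cells (3.43%). In the other classes it gave 2 of 16 in aerocytes (2.09%), 1 of 10 in large-vessel endothelium (4.33%), 1 of 5 in alveolar (3.68%) and 0 of 4 in interstitial macrophages (3.51%). DESeq2 called 1 member, Thbs1 in mural cells, and 0 in the other 8 classes. Over all genes edgeR called 0% in 7 classes, 0.0112% in mesothelial cells (Gsn, higher) and 0.0125% in general capillary cells (Retnlg, lower). Where a mouse is left out below, its group is 1 mouse that is assumed to vary like the 2 mice of the other group, so a pass in such a run shows how much a value depends on that mouse and does not add support.

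**Figure D4:**
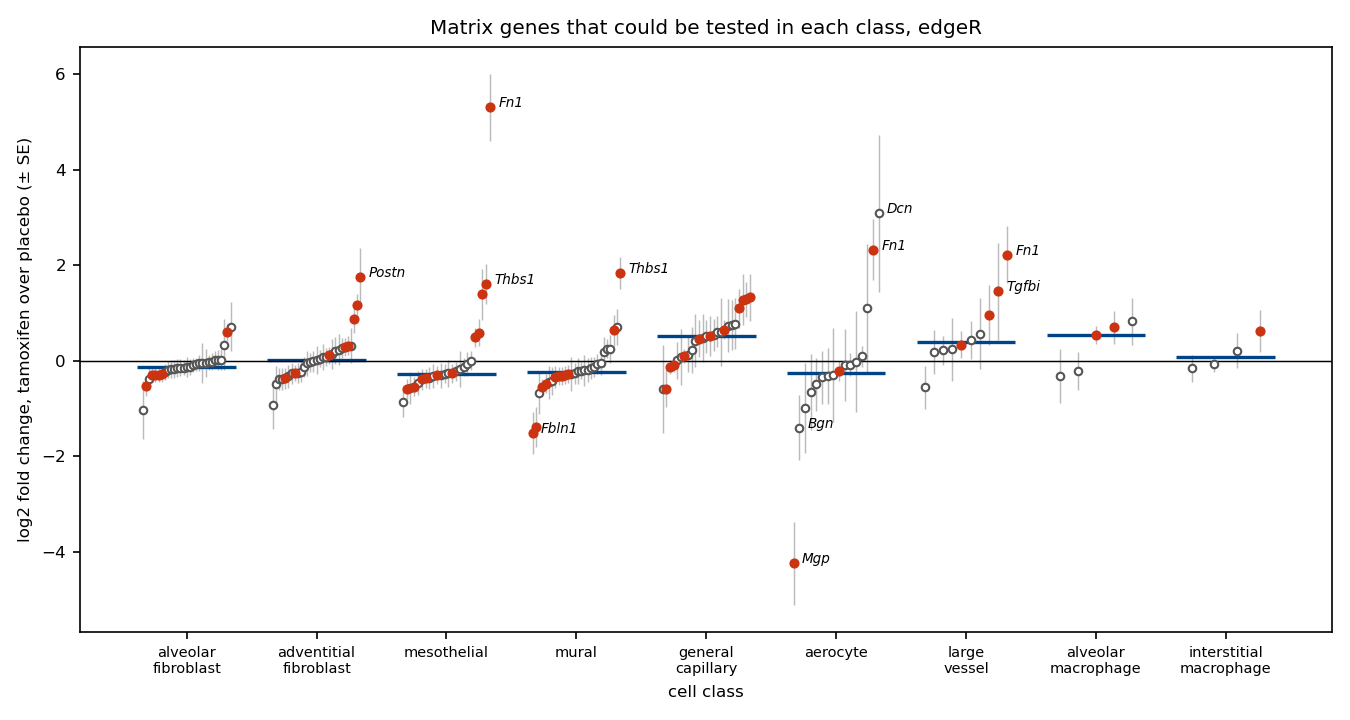
Log2 fold change, tamoxifen over placebo, of each matrix gene tested in a class, with SE bars; filled red points are genes whose 2 groups of mice do not overlap, open points the others, and blue lines class medians. No point passed the edgeR threshold; the Fn1 point in mesothelial cells rests on 1 placebo UMI, and medians run from -0.27 in mesothelial cells to 0.54 in alveolar macrophages.

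In alveolar fibroblasts 1 member was non-overlapping and higher and 5 were lower, where 15.4% and 14.6% of all 10353 genes were. The median log2 fold change of the 29 members was -0.14, against 0.00 for all genes, and 23 were below 0. It was -0.33 without placebo 1 and 0.00 without placebo 2, where 15 of the 29 were above 0. Dcn was at 206 and 177 CPM with placebo and 325 and 252 CPM with tamoxifen, a log2 fold change of 0.59 ± 0.17 (SE; edgeR, adjusted p 1). In cluster 19 alone Dcn stood, before TMM scaling, at 383.5 and 356 against 491 and 382.6 CPM, where the groups overlapped, and its log2 fold change was 0.21. Fbln1 was at 379 and 578 CPM with placebo and 324 and 338 CPM with tamoxifen, a log2 fold change of -0.53 ± 0.21. Col4a1 was at 256 and 291 against 236 and 205 CPM, a log2 fold change of -0.31 ± 0.15, and neither passed. Fbn1, Bgn and Col1a1 were the other non-overlapping members. Summed neutrophil markers in this class were 539 and 6525 CPM with placebo and 1786 and 3045 with tamoxifen. The class's own summed markers were at 10494 and 10008 against 9610 and 9205 CPM, and B cell markers at 23.2 and 21.9 against 345 and 56.3. Of 16 marker lists, 4 were non-overlapping and higher and 2, the class's own among them, lower. The part of any of these in the values above was not tested.

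In adventitial fibroblasts 6 members were non-overlapping and higher and 2 lower, against 16.9% and 16.7% of all 7868 genes, and the median log2 fold change was 0.01 (-0.01 without tamoxifen 1 or tamoxifen 2 and -0.05 with matrix genes among the clustering genes). Thbs1, an inhibitor of angiogenesis and an activator of latent TGF-beta (ENSMUSG00000040152, chr2:118111876-118127133, plus strand), was at 165 and 159 CPM with placebo and 297 and 436 CPM with tamoxifen. Its log2 fold change was 1.18 ± 0.23 (edgeR, adjusted p 0.38). The difference rested on few cells. Thbs1 was detected in 24.03 and 27.1% of placebo cells and 18.99 and 28.9% of tamoxifen cells, against 0.0995% of T cells. A single cell gave 133 of the 198 UMIs of tamoxifen 1, and 1 cell gave 44 of the 73 UMIs of placebo 2. Without the highest cell of each mouse the unscaled levels were 140 and 64.1 CPM against 97.6 and 314 CPM, and the groups overlapped.

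Thbs1 passed edgeR in adventitial fibroblasts when a mouse was left out: without placebo 1 the log2 fold change was 1.22 (adjusted p 0.0150), and without tamoxifen 1 it was 1.43 (adjusted p 2.54e-05). When matrix genes were allowed among the clustering genes it was -0.14, with 93.2 and 52.0 CPM with placebo and 42.2 and 96.6 CPM with tamoxifen before scaling. Postn was at 60.6 and 8.74 CPM with placebo and 69.1 and 202 CPM with tamoxifen, a log2 fold change of 1.75 ± 0.60 (adjusted p 0.864). It passed without placebo 1 (3.95, adjusted p 2.07e-07), where 4 UMIs of 1 cell are left in the placebo group, and without tamoxifen 1 (2.33, adjusted p 4.63e-12). Lox was at 54.3 and 67.7 against 141 and 78.6 CPM, a log2 fold change of 0.87 ± 0.30 (adjusted p 0.864), and it passed without tamoxifen 2 (1.24, adjusted p 0.00517). Summed alveolar fibroblast markers in the class were 3182 and 3472 CPM with placebo and 2483 and 2408 with tamoxifen, and their part was not tested. Summed alveolar type 2 markers were at 2076 CPM in tamoxifen 1 and 45.1 to 53.7 in the other mice.

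The mesothelial class was led by Msln, Slurp1 and Upk3b, and carried summed adventitial fibroblast markers of 17899 to 23505 CPM beside its own 12783 to 14567. In these cells, the lining of the lung surface, 5 members were non-overlapping and higher and 6 lower, against 16.1% and 15.4% of all 8927 genes. The median log2 fold change of the 24 tested members was -0.27, with 19 below 0, and without placebo 2 it was -0.03, with 14 below 0. Fn1 was nearly undetected with placebo: 1 UMI in 83 cells and 0 in 38, where a count of 0 allows up to 3 UMIs, or 4.36 CPM. The tamoxifen mice had 22 UMIs in 8 of 111 cells and 61 UMIs in 5 of 193 cells, and 14 and 41 of these came from the highest cell of each mouse. The ratio of the pooled levels was 46.9, with a 95% counting interval of 8.19 to 1875 that covers counting error only. The fitted log2 fold change was 5.31 ± 0.71 (edgeR, adjusted p 0.0699), and DESeq2 gave an adjusted p of 0.228.

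Fn1 in mesothelial cells moved with the clustering. It passed edgeR with doublets kept, with a lower clustering resolution and with matrix genes among the clustering genes (adjusted p 0.0131, 0.00857 and 0.00871), and without placebo 1 or placebo 2 (0.000584 and 0.0331), where the placebo group is 1 mouse with 0 or 1 UMI of Fn1. Where the mesothelial cluster was instead named afresh with matrix genes among the clustering genes, the UMIs were 1 and 0 against 2 and 61, so only tamoxifen 2 was high. Beside this class lay the unnamed cluster 64 (6 and 4 placebo cells, 32 and 53 tamoxifen cells). Its best marker score was for mesothelial cells, at 0.497 against 0.946 for the class. It held Fn1 at 722 and 281 CPM with placebo and 3416 and 1968 CPM with tamoxifen. Its leading genes included Mia, Chad and Snorc beside Enpp2, Fndc1 and Wt1. With matrix genes among the clustering genes, Mia, Chad and Snorc led a different cluster from Enpp2, Fndc1 and Wt1. Whether the placebo and tamoxifen cells of cluster 64 are of the same kind was not tested. Gsn, an actin-severing protein and no member, was the 1 gene edgeR called in the class, at 52.1 and 75.0 against 227 and 234 CPM. In the renamed cluster it stood at 49.1 and 66.2 against 69.6 and 220 CPM before scaling, and was not called.

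Other mesothelial members lay lower with tamoxifen, and none passed. Sparc was at 1292 and 1885 CPM with placebo and 1080 and 1020 CPM with tamoxifen, a log2 fold change of -0.60 ± 0.22 (edgeR, adjusted p 1). Col3a1, Col6a2, Col1a2, Loxl1 and Loxl2 were non-overlapping and lower as well. Thbs1 was at 12.1 and 7.50 against 42.6 and 23.4 CPM, a log2 fold change of 1.61 ± 0.42 (adjusted p 0.839), from 5 to 46 UMIs per mouse. Without placebo 1, Fn1, Col1a1 (-1.35, adjusted p 0.000219) and Tgfbi (3.80, adjusted p 0.0144) passed. Of 16 marker lists summed in the class, 4 were non-overlapping and higher and 1 was lower. The 4 were interstitial macrophage markers, at 74.7 and 151 CPM with placebo and 251 and 174 with tamoxifen and with 3 of 13 at 0, alveolar macrophage markers (163 and 95.97 against 380 and 235), classical monocyte markers (152 and 116 against 287 and 194) and neutrophil markers (1070 and 2174 against 2886 and 2389). Classical monocytes themselves held Fn1 at 672 to 1342 CPM and Tgfbi at 699 to 981 CPM. Unnamed cluster 53 held more Fn1, at 2810 to 5735 CPM, and less Tgfbi, at 348 to 614 CPM. Its size was 79 and 69 with tamoxifen against 41 and 9 with placebo, counted in cells. The part of these cells in the mesothelial values was not tested.

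In mural cells 2 members were non-overlapping and higher and 9 lower, against 16.7% and 15.2% of all 7296 genes, and the 28 members had a median of -0.24 on the log2 scale. Without placebo 1 the median was 0.13, with 15 of 28 above 0. It was -0.40 without placebo 2 and with doublets kept, -0.14 without tamoxifen 2, and 0.07 in the pericyte cluster, where 16 were tested. Thbs1 was at 373 and 243 CPM with placebo and 800 and 1414 CPM with tamoxifen, a log2 fold change of 1.83 ± 0.33 (edgeR, adjusted p 1), and DESeq2 gave an adjusted p of 0.0276. The highest cell gave 7.89 to 18.3% of a mouse's UMIs, and without it the unscaled levels were 350 and 211 against 660 and 1110.4 CPM. Thbs1 was detected in 43.5 and 60.0% of placebo and 61.2 and 55.4% of tamoxifen mural cells. The smooth muscle cluster held 409 and 241 against 855 and 1461 CPM, and the pericyte cluster 125 and 135 against 127 and 229 CPM. Without placebo 1 the log2 fold change was 2.20 and passed edgeR (adjusted p 0.0183), and over the other runs that left out a mouse it was 1.37 to 2.19.

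Thbs1 is an early-response gene, so the summed level of 12 immediate early genes, chosen after the values were seen, is given beside it. In mural cells they stood at 7811 and 9328 CPM with placebo and 7676 and 12647 with tamoxifen, in adventitial fibroblasts at 11556 and 6218 against 8549 and 12838, and in mesothelial cells at 6809 and 4877 against 7082 and 7916. Platelets, which store thrombospondin, held Thbs1 at 1455 to 3645 CPM. The part of either in the Thbs1 values was not tested.

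Fbln1 and Lum were lower in mural cells of the tamoxifen mice. Fbln1 was at 41.8 and 61.2 against 23.1 and 9.58 CPM, a log2 fold change of -1.51 ± 0.44, and Lum at 72.1 and 53.3 against 33.3 and 11.98 CPM, a log2 fold change of -1.39 ± 0.43, and neither passed (edgeR, adjusted p 1 for both). Both are adventitial fibroblast genes, and both were read in 12 or fewer mural cells per mouse. Summed adventitial fibroblast markers in the mural class ran in the same direction, at 511 and 560 CPM with placebo and 327 and 331 with tamoxifen, with 1 of 12 at 0, and their part was not tested. Summed erythroid markers in the class ran from 57.6 to 21151 CPM.

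**Figure D5:**
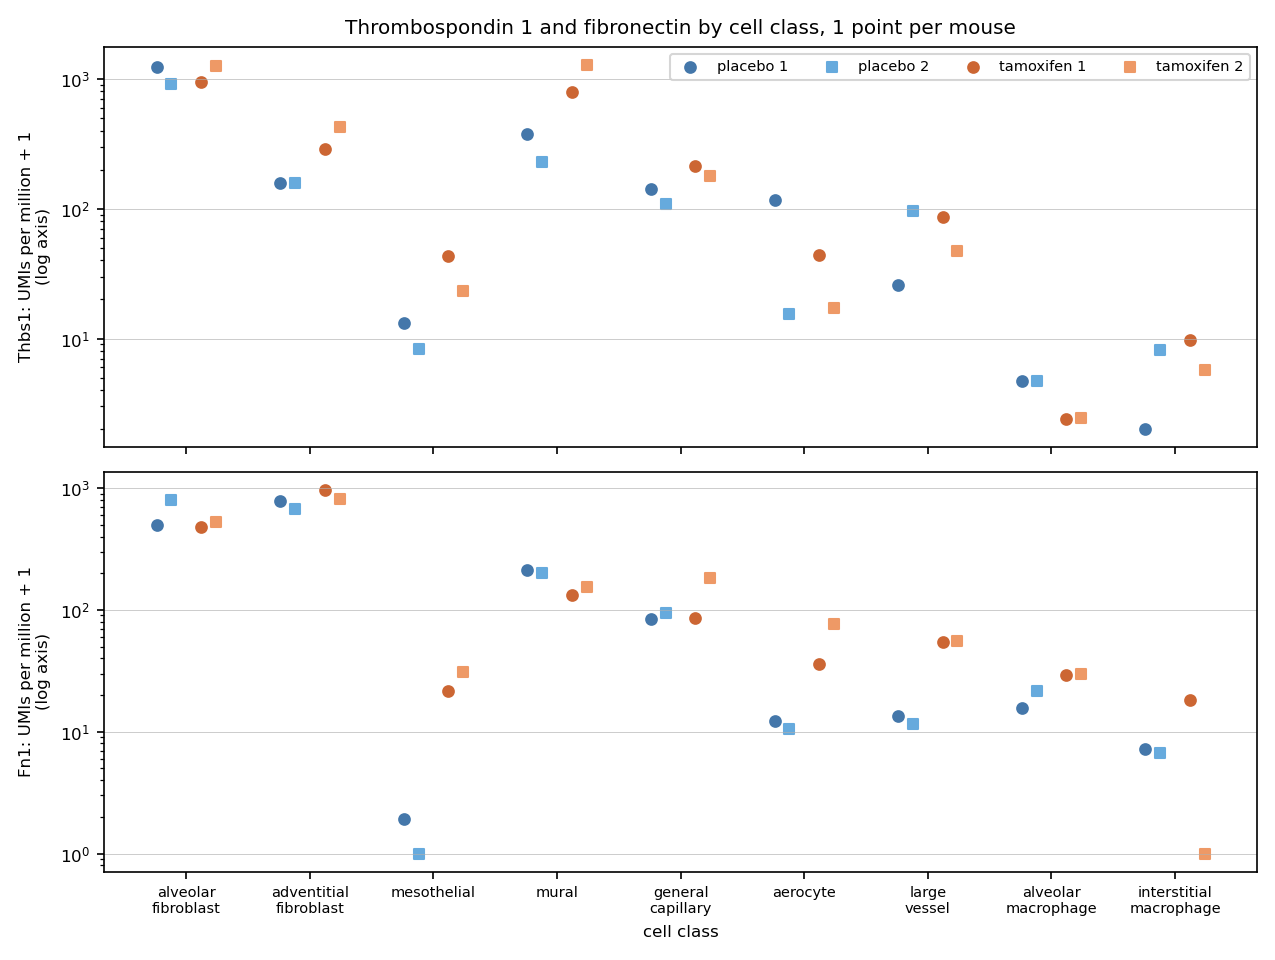
Thbs1 (upper panel) and Fn1 (lower panel) in unscaled CPM plus 1 on log axes, by cell class, with 1 point per mouse (blue placebo, orange tamoxifen). Thbs1 of the tamoxifen mice lies above the placebo mice in adventitial, mesothelial, mural and general capillary cells and overlaps in alveolar fibroblasts, where it is high in all 4 mice (915 to 1262 CPM).

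Thbs1 was too low to be tested in the 2 macrophage classes. Of the 7 classes in which it was tested, both tamoxifen mice lay above both placebo mice in 4 and below in 0, where 14.5 to 16.9% of all genes of a class lay above. In 2 of those 4, adventitial fibroblasts and general capillary cells, its log2 fold change was -0.14 and 0.02 with matrix genes among the clustering genes. Fn1 was higher in 5 and lower in 1 of 8 classes, where 14.5 to 16.9% of all genes of a class lay above. The shares of genes lying lower are given with each class. These classes come from the same 4 mice. In mesothelial cells, aerocytes and large-vessel endothelium Fn1 rests on few UMIs. Thbs1 in alveolar fibroblasts was at 1263 and 928 against 946 and 1277 CPM, a log2 fold change of 0.02. There 79.6% of cells had a Thbs1 UMI. The treatment difference in alveolar minus that in adventitial fibroblasts was tested with the mouse as a block: -1.17 ± 0.17 for Thbs1 (edgeR, adjusted p 0.146) over 10383 genes. No member and no gene passed that test, with 4 of 30 members and 4.08% of all genes at an unadjusted p under 0.05. Without placebo 1, Postn passed (-6.39, adjusted p 0.0204) among 19 genes, and without placebo 2, Thbs1 passed (-1.33, adjusted p 0.0451) among 6.

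In general capillary endothelium 8 members were non-overlapping and higher and 3 lower, against 16.4% and 15.1% of all 8020 genes, and the 25 members had a median of 0.51 on the log2 scale with 21 above 0. Without tamoxifen 2 the median was -0.04, with 12 of 26 above 0, and with matrix genes among the clustering genes it was -0.16, with 3 of 10 above 0. It was 0.89 without tamoxifen 1 and 0.88 with equal cells per mouse. Eln was at 163 and 136 CPM with placebo and 217 and 533 CPM with tamoxifen, a log2 fold change of 1.28 ± 0.36 (edgeR, adjusted p 1). In tamoxifen 2, 1 cell gave 139 of 162 Eln UMIs, and without the highest cell of each mouse the unscaled levels were 137 and 116 against 145 and 78.3 CPM. With matrix genes among the clustering genes the log2 fold change was -0.21. Thbs1 was at 141 and 115 against 215 and 184 CPM, a log2 fold change of 0.65 ± 0.20, which became 0.02 under that clustering. Loxl2 was at 10.7 and 9.18 against 30.1 and 16.4 CPM, a log2 fold change of 1.32 ± 0.49, from 5 to 20 UMIs per mouse, and none of these passed.

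Fibroblast genes in capillary cells came from few cells. Mgp had a UMI in 36 of 447 general capillary cells, 8.05%, against 0.796% of T cells and 1.16% of B cells, and Dcn in 2. Without tamoxifen 1, which leaves the 63 cells of tamoxifen 2 alone in that group, Col1a1, Col3a1, Col6a2, Mgp, Eln and Bgn passed, with log2 fold changes from 1.07 for Bgn to 2.11 for Col6a2. One cell of tamoxifen 2 held 52 of its 64 Col1a1 UMIs. Summed alveolar type 2 markers were 2448 CPM in tamoxifen 2 and 56.2 to 70.2 in the other mice. Summed alveolar fibroblast markers were 747 and 1256 with placebo and 616 and 1266 with tamoxifen. Erythroid markers were at 18896 and 13386 against 3399 and 14523 CPM, and neutrophil markers at 2002 and 3859 against 722 and 2483. The class's own markers were at 11349 and 13147 against 10844 and 9492 CPM. Of 16 marker lists, 3 were non-overlapping and higher and 3, the class's own among them, lower. Retnlg, the gene called here, was among the leading genes of a cluster named neutrophil. The part of these shifts was not tested.

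In aerocytes 1 member was non-overlapping and higher and 2 lower, against 14.5% and 15.6% of all 5129 genes. The median log2 fold change of the 16 tested members was -0.26, and it ran from -1.62 without tamoxifen 2 to 0.21 without placebo 1. Mgp was at 1430 and 325 CPM with placebo and 73.5 and 11.8 CPM with tamoxifen, a log2 fold change of -4.25 ± 0.88 (edgeR, adjusted p 1). Those values came from 7, 3, 2 and 1 cells, and the highest cell of each mouse held 228 of 473, 117 of 121, 16 of 17 and 2 of 2 UMIs. Mgp passed without placebo 1 (-2.81, adjusted p 0.000171) and without placebo 2 (-4.96, adjusted p 6.97e-06), and its log2 fold change was 0.04 with matrix genes among the clustering genes. Summed alveolar fibroblast markers in aerocytes were 766 and 290 CPM with placebo and 330 and 118 with tamoxifen. Fn1, at 12.1 and 10.7 against 38.9 and 82.6 CPM (log2 fold change 2.33 ± 0.64), came from 1 cell in each tamoxifen mouse. Col4a2, a chain of collagen IV, was at 520 and 601 against 454 and 513 CPM, a log2 fold change of -0.21 ± 0.21.

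Dcn in aerocytes came from single cells. It had 93 UMIs in 1 of 38 cells of tamoxifen 2, 21 UMIs in 1 cell of placebo 1 and 0 in the other mice, and Dcn and Mgp passed without placebo 1, Mgp and Bgn without placebo 2. Summed adventitial fibroblast markers were 1216 CPM in tamoxifen 2 and 89.3 to 393 in the others. In large-vessel endothelium 4 members were non-overlapping and higher and 0 lower, against 16.4% and 16.5% of all 4363 genes. The median log2 fold change of the 10 tested members was 0.38, and it was 0.04 without tamoxifen 1. The class's own summed markers were at 7267 and 6221 CPM with placebo and 3908 and 2916 with tamoxifen, where they lay below the summed general capillary markers of 5227 and 4430. Summed interstitial macrophage markers were 1005 and 601 against 143 and 207 CPM, with 2 of 13 at 0, and alveolar macrophage, T cell and erythroid markers were non-overlapping and lower too. The part of these shifts in the values of the class was not tested. Fn1 was at 13.4 and 12.1 against 59.7 and 64.6 CPM, a log2 fold change of 2.22 ± 0.60 (edgeR, adjusted p 0.862), from 3, 2, 15 and 13 UMIs. Mgp was at 674 and 139 against 769 and 830 CPM and passed without placebo 1 (2.51, adjusted p 0.000204). Tgfbi was at 0 and 103 against 104 and 154 CPM and passed without placebo 2, where no UMI is left in the placebo group.

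In macrophages only 5 members could be tested in the alveolar and 4 in the interstitial class. Of these, 2 were non-overlapping and higher in alveolar macrophages, against 16% of all 5787 genes, and 0 lower, against 15.9%. Tgfbi was at 107 and 88.7 CPM with placebo and 134 and 150 CPM with tamoxifen, a log2 fold change of 0.54 ± 0.19 (edgeR, adjusted p 0.999). Fn1 was at 14.6 and 21.4 against 29.1 and 30.6 CPM, a log2 fold change of 0.70 ± 0.34, from 74 UMIs in all. Before scaling, cluster 11 of this class held Fn1 at 12.8 and 18.7 against 40.6 and 18.3 CPM. Cluster 12 held it at 18.9 and 25.2 against 10.4 and 42.0 CPM, and the groups overlapped in both clusters. In interstitial macrophages 1 member was higher, Sparc at 8.31 and 11.7 against 12.9 and 17.0 CPM (0.63 ± 0.44), and 0 lower, against 15.9% and 16.1% of all 7382 genes. Before scaling it ran from 8.21 to 16.0 CPM here and from 1.80 to 12.2 CPM in T and B cells, so this level is close to background. Tgfbi, the matrix gene of this class, did not differ beyond the spread between mice. With unnamed cluster 53 added, whose best marker score was for interstitial macrophages, 9 members were tested. Their median log2 fold change was 1.47, with 7 above 0, against 0.07 for the 4 without that cluster. At an unadjusted p under 0.05 edgeR gave 6 of the 9 and 556 of all 8929 genes, and no member passed. That cluster gave 41 and 9 placebo cells and 79 and 69 tamoxifen cells, and its part in the shift was not tested.

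The other matrix genes, 96 in 7 lists (further collagens, laminins and linkers, elastic fibre proteins, proteoglycans, glycoproteins, collagen-processing enzymes and matrix receptors), were tested in the same fits. None passed in any class, with 80 tested in alveolar and 76 in adventitial fibroblasts, 66 in mesothelial, 67 in mural and 53 in general capillary cells, and 12 to 31 in the others. In alveolar fibroblasts 4 were non-overlapping and higher (5%) and 19 lower (23.8%), against 15.4% and 14.6% of all genes. In adventitial fibroblasts 12 were higher (15.8%) and 20 lower (26.3%), against 16.9% and 16.7%, and in mesothelial cells 7 (10.6%) and 18 (27.3%), against 16.1% and 15.4%. Mural cells gave 8 and 8 (11.9% each), against 16.7% and 15.2%, and general capillary cells 6 (11.3%) and 7 (13.2%), against 16.4% and 15.1%.

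By list, the genes that were non-overlapping and lower in alveolar fibroblasts were 5 of 12 tested elastic fibre and microfibril proteins, 4 of 13 receptors, 3 of 14 glycoproteins, 3 of 8 proteoglycans, 2 of 8 collagens, 1 of 16 processing enzymes and 1 of 9 laminins and linkers. The last 4 of these lists gave 1 higher each and the first 3 gave 0. In adventitial fibroblasts 7 of 15 processing enzymes were lower and 2 higher, and the other lists gave 1 to 3 in each direction. In mesothelial cells 6 of 15 processing enzymes were lower and 1 higher, and the other lists gave 1 to 3 lower and 0 to 3 higher. The lists were not tested as sets.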

How the data were processed

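Single-cell libraries of whole lung from 4 mice, 2 with placebo and 2 with tamoxifen, were analysed from deposited UMI counts per gene and barcode. Per the submitters' processing notes these counts come from Cell Ranger 8.0.1 on mm10, while the header of each matrix names cellranger 5.0.0. The authors' cell filter and annotation are not given in the sources used here. The labels state that separate mice were used.

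A barcode was kept where it had 250 or more genes and a mitochondrial share of 15% or less. Doublets were removed at a fixed Scrublet score of 0.25 (81 to 160 per library), because the automatic threshold called 0 to 160. This left 28477 cells with median depths of 2626 to 4066 UMIs. Log-normalised cells were clustered in scanpy 1.11.5 (2000 variable genes without the 30 members and 96 further matrix genes, 40 components, 15 neighbours, Leiden resolution 4), and 36 of 77 clusters were named from 34 marker lists. Classes needed 20 cells per mouse.

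UMIs were summed per mouse and class and fitted in edgeR 4.0.16 (TMM, filterByExpr, quasi-likelihood F test, no covariate), 1 fit per class over all genes, with Benjamini-Hochberg adjustment at 0.05. The fit was also run on counts simulated from the alveolar fibroblast fit, with changes set only in genes above 50 CPM. That run does not cover the shallow classes or sums of few UMIs. Members and lists were chosen with earlier results of these data known. Fold changes are printed for members past the threshold, and otherwise for at most 3 members per class with the smallest p among those whose groups do not overlap; others, such as Thbs1 in alveolar fibroblasts, were printed after their values were seen. Alternatives were DESeq2 1.42.0, RLE size factors, no count filter, a replicate block, each mouse left out, doublets kept, a Leiden resolution of 2, matrix genes among the clustering genes, equal cells per mouse, and, added after seeing the data, single clusters, unnamed clusters added and another mesothelial cluster. Gene positions follow GENCODE vM21 on GRCm38. UMI counts set the precision, and intervals cover counting error only.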

Additional observations from a re-analysis of the deposited data

Results flagged for a closer look

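Some members had both tamoxifen mice above both placebo mice in one cell class and below them in another. The share of all genes that do the same was not counted, so this does not set the members apart from other genes. The difference between the 2 classes was not tested for any of them, and each value below is the log2 fold change in the first class minus that in the second, taken over the pair of classes with the widest gap. For Fn1 it was 5.79 (mesothelial minus mural cells), of which the mesothelial part rests on 1 placebo UMI. For Mgp it was 5.21 (large-vessel endothelium minus aerocytes), where 1 to 7 aerocytes per mouse held a UMI. For Fbln1 it was 2.61 (general capillary minus mural cells), and for Lum, lumican, it was 1.71 (adventitial fibroblasts minus mural cells). Col6a2 and Loxl2 differed by 1.67 and 1.59 (general capillary minus mesothelial cells), and the capillary part of Loxl2 rests on few UMIs. Sparc differed by 1.23 (interstitial macrophages minus mesothelial cells), where the macrophage level, 8.21 to 16.0 CPM before scaling, is close to background. Col4a2 differed by 0.54 (large-vessel endothelium minus aerocytes) and Loxl1 by 0.44 (adventitial fibroblasts minus mural cells).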

How the results depend on the processing

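With 2 mice per group, a few shallow classes and sums that can rest on 1 cell, precision was limited. Of 306 alternative values of the 24 named class and gene pairs, 269 kept their direction and their side of the threshold, 33 passed only under the alternative and 4 turned. With matrix genes among the clustering genes the log2 fold change was -0.14 for adventitial Thbs1, -0.21 for capillary Eln and 0.04 for aerocyte Mgp, and with the lower Leiden resolution it was -0.08 for large-vessel Tgfbi; the cause was not tested.

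Genes called, in the order alveolar fibroblasts, adventitial fibroblasts, mesothelial, mural, general capillary, aerocyte, large-vessel, alveolar macrophage and interstitial macrophage, were 83, 134, 85, 147, 22, 58, 96, 22 and 33 with no count filter. DESeq2 called 3 adventitial, 6 mesothelial, 5 mural, 7 large-vessel and 1 interstitial macrophage genes. The lower resolution gave 6 mesothelial, 3 capillary and 1 alveolar macrophage genes, matrix genes among the clustering genes 8, 8 and 1 large-vessel, doublets kept 4 mesothelial, 0 capillary and 3 alveolar macrophage, equal cells 4 mesothelial and 0 capillary, and unnamed clusters added 4, 0 and 1 interstitial macrophage. In other clusterings a class is the clusters that hold mostly its cells: with matrix genes among the clustering genes, the large-vessel class is 1 cluster of 289 cells that the marker rule names lymphatic endothelium, and 198 cells of the mesothelial class come from a cluster that the rule leaves unnamed. The other mesothelial cluster gave 0, cluster 15 alone 2, cluster 65 alone 7 and cluster 11 alone 1.

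Members called were 2 adventitial, 3 mesothelial, 3 mural, 1 capillary, 4 aerocyte and 1 large-vessel with no count filter, 1 mural with DESeq2, and 1 mesothelial under the lower resolution, matrix genes among the clustering genes, doublets kept and unnamed clusters added. The interaction test without a filter called 92 genes and 3 members. The members' summed share of UMIs moved to 0.417% in general capillary cells and 0.696% in aerocytes with matrix genes among the clustering genes, and in interstitial macrophages to 0.0724% in cluster 74 and 0.24% with unnamed clusters.

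The labels do not pair mice, and deviations of same-numbered mice correlated between -0.07 and 0.39. With the replicate number as a block, 49 adventitial, 37 mesothelial, 46 mural, 1 aerocyte, 51 large-vessel and 15 alveolar macrophage genes were called, and 1 adventitial, 2 mesothelial, 1 mural and 1 aerocyte member.

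Leaving out 1 mouse in turn gave 0 to 82 genes in alveolar fibroblasts, 0 to 146 adventitial, 0 to 79 mesothelial, 0 to 76 mural, 2 to 108 capillary, 0 to 34 aerocyte, 2 to 133 large-vessel, 0 to 68 alveolar and 3 to 33 interstitial macrophage. Members called ranged from 0 to 2 in adventitial fibroblasts and aerocytes, 0 to 3 mesothelial, 0 to 1 mural and large-vessel, 0 to 6 capillary, and were 0 in alveolar fibroblasts and both macrophage classes. The interaction test gave 0 to 19 genes and 0 to 1 members. Summed shares ranged from 3.11 to 3.40% in alveolar fibroblasts, 4.42 to 4.69% adventitial, 1.44 to 1.61% mesothelial, 1.27 to 1.43% mural, 0.586 to 0.681% capillary, 0.301 to 0.389% aerocyte, 0.314 to 0.386% large-vessel, 0.0206 to 0.0232% alveolar and 0.0775 to 0.0827% interstitial macrophage.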

Other observations

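Matrix genes were also read in cells outside the 9 classes. Fn1 stood at 1342, 850, 768 and 672 CPM in classical monocytes, in the order placebo 1, placebo 2, tamoxifen 1 and tamoxifen 2. It was at 5582, 5735, 3977 and 2810 CPM in unnamed cluster 53, led by Prg4, Fcna and Alox15, with 41, 9, 79 and 69 cells. The unnamed cluster 64, led by Cytl1, Enpp2 and Fndc1, held Dcn at 6570, 10587, 8384 and 8734 CPM and Sparc at 10181, 758, 2556 and 2570 CPM. Alveolar type 1 cells held Col4a2 at 849, 879, 688 and 606 CPM and Npnt at 529, 271, 237 and 502 CPM. These values are descriptions of clusters and were not tested.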
